A study of Mus musculus with 60 samples.

Results

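The genes described here mark basophils, mast cells and eosinophils, which are scarce granule-bearing cells of the spleen. They were followed in spleen leukocytes of young NOD mice and of 2 control strains. The members were every probe set that the array annotation gives to Mcpt8, Prss34, Cpa3, Fcer1a, Ms4a2, Gata2, Prg2, Epx or Ear2, and in addition 1 probe set that has no gene in that annotation and is named Ear1 in the study's own list (the Ear1 probe set). The rule found 10 of 45037 probe sets. Mcpt8, Cpa3, Fcer1a, Prg2 and Epx had 1 probe set each, Ms4a2 and Gata2 had 2 each, and no probe set was named for Prss34 or Ear2. The Ear1 probe set was added because the study had listed it as low in NOD mice of 2 weeks, so its NOD difference at that age chose it and is given as a description only. Its age differences in the control strains use the same 2-week signals and are a description as well.

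The mice were untreated females, and RNA was taken from their unfractionated spleen leukocytes without culture. NOD mice, which develop autoimmune diabetes spontaneously, were studied at 4 weeks and at 2 weeks. NON mice, a related strain that stays free of diabetes, and C57BL/6 (C57) mice, a common laboratory strain, were the controls at the same ages. Each of the 6 groups held 5 mice. Each mouse had 1 array of type 430A and 1 of type 430B, and no mouse was measured at both ages. The values are MAS 5.0 signals, which are linear intensities. Nothing in the sources says that animals were pooled, and p-values measure the spread between these 5 mice per group. Because whole leukocyte preparations were measured, a lower signal from fewer cells of a type and one from less RNA per cell cannot be told apart.

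Basophils and mast cells arise from a shared Gata2-dependent progenitor and carry the high-affinity IgE receptor, FcεRI. When IgE on that receptor is cross-linked by antigen, they release histamine, lipid mediators and granule proteases. Eosinophils carry little of this receptor in mice and are filled with cationic granule proteins: major basic protein (Prg2), eosinophil peroxidase (Epx) and the eosinophil-associated ribonucleases (the Ear genes, a mouse family of many near copies). The spleen of a mouse in its first weeks still makes blood cells of all myeloid lineages.

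The authors had scaled each array globally, which by itself makes arrays alike in brightness. After that scaling the median signal of the 30 mice was 84.8 to 126 on 430A and 126 to 169 on 430B. For Gapdh, the 3'-end over the 5'-end signal, a sign of RNA quality, differed in range between strains. It was 0.744 to 1.3 in NOD, 0.746 to 4 in NON and 0.804 to 2.4 in C57 mice. The value of 4 was that of replicate 2 of the 2-week NON mice. The summed signal of 4 B cell markers was 9880 to 29600 per mouse, and that of 5 T cell markers 721 to 7490. Both lowest sums were those of replicate 5 of the 2-week NON mice. The same mouse had the highest sum of 6 erythroid markers (14200). One NOD mouse of 4 weeks (replicate 3) correlated less with its group than the others (median r 0.739, against 0.847 to 0.859). Without it the number of member probe sets called was the same in every comparison.

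The DNA just before the start site was read for those members that RefSeq lists on the mouse build GRCm38.p6, which was 8 of the 9 named genes (all but Prg2). GATA factors such as Gata1 and Gata2 drive much of the basophil and mast cell program, so the 250 bases upstream were searched on both strands for AGATAA and TGATAA, which differ in their first letter, so that no site counts as both. These letters were found in 4 of the 8 genes (Prss34, Cpa3, Fcer1a and Ms4a2), all of them basophil or mast cell genes, and in 16.6% of the 32851 mouse promoters of the same length. They were not found before Mcpt8, Gata2, Epx or Ear2. Of the 8 genes only Epx and Ear2 are eosinophil genes, too few to compare the cell types by these letters. Ms4a2 had 3 matches, starting 224, 37 and 11 bases before the start site, and 0.371% of all promoters had as many. Cpa3 had 1 match, 46 bases before it. The promoters of Ms4a2 (chr19:11623720-11623969, minus strand) and Cpa3 (chr3:20242182-20242431, minus strand) are shown as genes with matches whose probe sets were bright enough to compare, beside that of Mcpt8 (chr14:56085198-56085447, minus strand), the basophil gene with the largest age difference, which had none. Capitals mark the matches, as read on the gene's strand, so that TTATCT is AGATAA on the other strand.
Ms4a2: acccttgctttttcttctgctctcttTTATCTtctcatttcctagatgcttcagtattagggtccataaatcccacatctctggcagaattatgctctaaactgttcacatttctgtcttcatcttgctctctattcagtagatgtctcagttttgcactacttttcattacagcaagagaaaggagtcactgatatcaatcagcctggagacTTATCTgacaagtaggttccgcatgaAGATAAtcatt
Cpa3: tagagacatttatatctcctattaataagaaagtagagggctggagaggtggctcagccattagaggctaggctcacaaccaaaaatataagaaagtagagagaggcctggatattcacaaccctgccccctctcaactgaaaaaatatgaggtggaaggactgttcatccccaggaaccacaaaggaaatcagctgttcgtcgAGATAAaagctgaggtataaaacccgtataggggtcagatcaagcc
Mcpt8: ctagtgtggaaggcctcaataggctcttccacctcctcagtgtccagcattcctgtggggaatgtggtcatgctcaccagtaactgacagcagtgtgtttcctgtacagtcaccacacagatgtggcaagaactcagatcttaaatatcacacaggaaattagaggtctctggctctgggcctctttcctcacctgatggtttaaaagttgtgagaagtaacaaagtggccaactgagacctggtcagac
A match is only a match of letters, and nothing was measured at these sites.

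The members were mostly lower at 4 weeks than at 2 weeks, and Prg2 and Epx of the eosinophil granule and Mcpt8 of basophils had the clearest falls. In NOD mice 7 of 10 differences were negative and 0 passed by limma, against a background of 0.104% of all probe sets called lower in that strain and 0.146% called in either direction, and 2 of the 10 had an unadjusted p under 0.05. In NON mice 9 of 10 were negative and 2 passed, Prg2 and Epx, against 0.65% called lower. In C57 mice all 10 were negative and 5 passed, Mcpt8, the Ms4a2 probe set of the 430B array, Prg2, Epx and the Ear1 probe set, against 0.402% called lower. The call of the Ear1 probe set is a description, because the 2-week control signals entered its choice. The counts and medians given here include this probe set. The median log2 difference of the members was -0.33 in NOD, -0.52 in NON and -1.37 in C57 mice, beside 0, 0 and 0.03 over all probe sets tested. Every 4-week mouse was below every 2-week mouse for 1 member in NOD mice (Epx, beside 0.948% of all probe sets), 2 in NON mice (Prg2 and Epx, beside 1.83%) and 5 in C57 mice (Mcpt8, Cpa3, 1 probe set each of Ms4a2 and Gata2, and Prg2, beside 1.28%). No member passed the test of NOD against the controls in age change, in which 0% of all probe sets were called (2 members at an unadjusted p under 0.05), or of NON against C57, in which 0.00261% were called (1 member at an unadjusted p under 0.05).

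**Figure D1:**
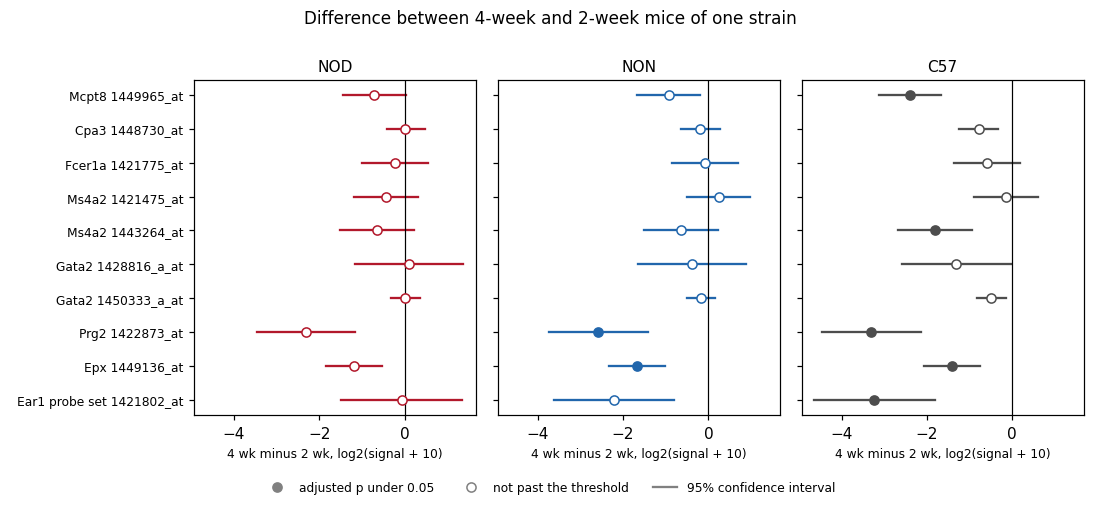
Difference between 4-week and 2-week mice on the log2(signal + 10) scale for the 10 member probe sets in NOD, NON and C57 mice, with 95% confidence intervals from the fit on all 30 mice. Filled points passed an adjusted p of 0.05, which 0 did in NOD, 2 in NON and 5 in C57 mice. Among the latter is the Ear1 probe set, whose 2-week control signals entered its choice.

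Mcpt8, mouse mast cell protease 8, is the granule protease that marks basophils. In NOD mice its signal was 225.8, 260.1, 83.1, 115.5 and 141.5 at 4 weeks and 450.3, 134.9, 509.5, 251.8 and 135 at 2 weeks. The NOD groups overlapped, since 3 of the 2-week NOD mice lay within the 4-week range (log2 difference -0.71, limma adjusted p = 0.58). In NON mice Mcpt8 was 169.8, 214.4, 245.3, 276.7 and 130.7 at 4 weeks and 513.8, 447.5, 333.4, 272 and 439.6 at 2 weeks. A single pair of mice kept the NON groups from separating, and the mean was 1.93-fold lower at 4 weeks without passing the test (log2 difference -0.93, limma adjusted p = 0.23). In C57 mice it was 132.9, 164.7, 45.7, 93.7 and 59.1 at 4 weeks and 546.6, 681, 493, 491.4 and 406.5 at 2 weeks. Every 4-week C57 mouse was below every 2-week one, by a wide gap. The C57 mean was 99.2 ± 49.8 at 4 weeks, against 524 ± 101 at 2 weeks (SD, n = 5 each), a 5.28-fold fall (log2 difference -2.40, SE 0.36, limma adjusted p = 0.0015). Tested directly, the age difference was not shown to be unlike between strains: NOD minus the mean of both controls gave 0.95 on the log2 scale (95% confidence interval 0.05 to 1.86, limma adjusted p = 0.8), and NON minus C57 gave 1.47 (0.42 to 2.51, adjusted p = 0.68).

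Between strains of one age, Mcpt8 did not pass the test. At 4 weeks it averaged 165 ± 74.9 in NOD mice, against 207 ± 58.3 in NON and 99.2 ± 49.8 in C57 mice (NOD minus the mean of controls 0.16, 95% confidence interval -0.50 to 0.83), so that NOD stood between the controls. At 2 weeks it averaged 296 ± 176 in NOD mice, against 401 ± 96.9 in NON and 524 ± 101 in C57 mice, with NOD the lowest (-0.79, 95% confidence interval -1.43 to -0.16, limma adjusted p = 0.41). No neighbours in either order passed the test (adjusted p = 0.43 to 0.76). The ends of the 4-week order, NON and C57, differed by 1.08 (95% confidence interval 0.31 to 1.84, adjusted p = 0.27).

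**Figure D2:**
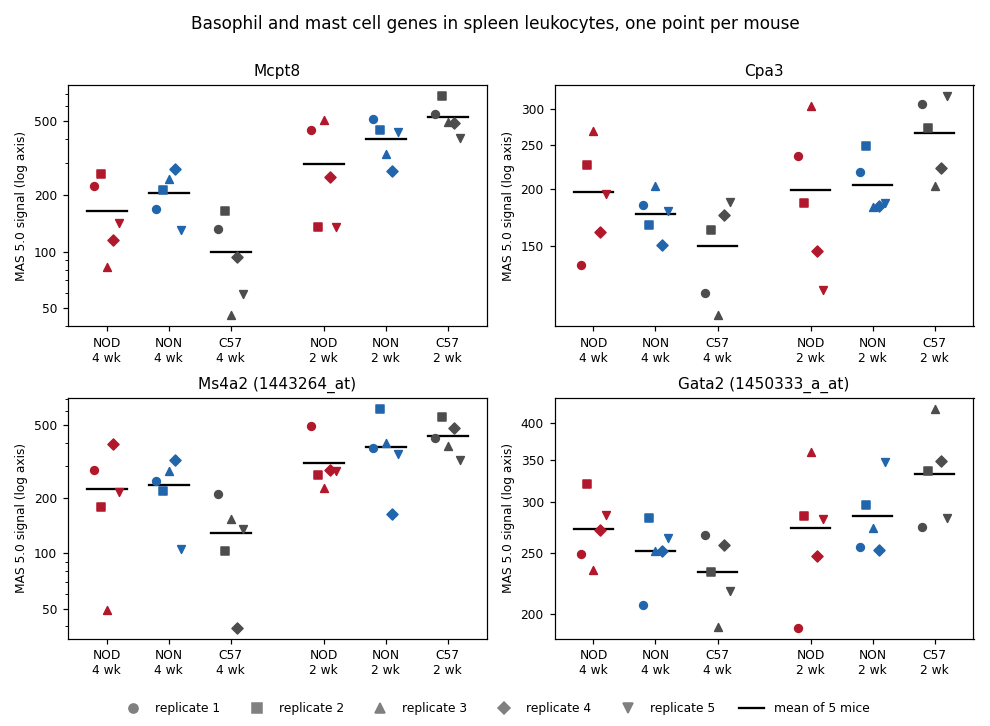
MAS 5.0 signal (log axis) of Mcpt8, Cpa3, the brighter Ms4a2 probe set and the brighter Gata2 probe set in each of the 30 mice, by strain and age. Each symbol is 1 mouse, with its shape giving the replicate number, and black lines are means of 5 mice. The 4-week C57 mice lie below all 2-week C57 mice for all 4 probe sets, as for 1.28% of all probe sets. The NOD groups and the NON groups overlap for all 4.

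Cpa3 encodes carboxypeptidase A3, a granule enzyme of mast cells and basophils. In C57 mice its signal was 118.5, 162.9, 106.2, 176 and 187.9 at 4 weeks and 306.8, 272.6, 203.8, 222.9 and 319.6 at 2 weeks. The C57 groups did not overlap, but the 1.76-fold difference did not pass over all probe sets (log2 difference -0.79, SE 0.22, 95% confidence interval -1.24 to -0.34, limma adjusted p = 0.15). In NOD mice the age difference of Cpa3 was 0.02 (-0.42 to 0.47) and in NON mice -0.19 (-0.64 to 0.26). Across strains the group means of Cpa3 lay between 150 and 265, and no strain contrast passed.

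Ms4a2 encodes the beta chain of FcεRI, which amplifies the receptor's signal, and Fcer1a its IgE-binding alpha chain. The Ms4a2 probe set of the 430B array, 1443264_at, had signals of 211.4, 102.8, 153.7, 39.3 and 135.8 in C57 mice of 4 weeks and 424.9, 555.8, 385.1, 485.8 and 323.7 in those of 2 weeks. The groups did not overlap, and the mean was 3.38-fold lower at 4 weeks (129 ± 63.6 against 435 ± 89.7, log2 difference -1.82, SE 0.42, limma adjusted p = 0.044). This call lay close to the threshold and was kept in 13 of 41 alternative settings. The Ms4a2 probe set of the 430A array, 1421475_at, gave no such difference in the same mice, at 85.8 ± 24.7 in C57 mice of 4 weeks and 94.7 ± 18.2 in those of 2 weeks (log2 difference -0.14, 95% confidence interval -0.89 to 0.60). After each group's mean was taken off, the 2 Ms4a2 probe sets correlated at r = 0.39 over the 30 mice (Spearman's rho = 0.19), and at r = 0.05 without the 2 mice farthest from the median. For 1443264_at the age difference was -0.65 in NOD mice (-1.52 to 0.21) and -0.64 in NON mice (-1.51 to 0.22), and neither passed. Fcer1a was dim, with group means of 27.9 to 43, and passed in no comparison.

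Gata2, the transcription factor of the shared progenitor, had a bright probe set (1450333_a_at, group means 233 to 333) and a dim one (1428816_a_at, 19.3 to 63.7). On the bright one, C57 mice lay between 190.9 and 266.2 at 4 weeks and between 274.6 and 421.2 at 2 weeks. These ranges did not overlap, yet the 1.43-fold difference did not pass (log2 difference -0.49, SE 0.16, limma adjusted p = 0.34). The intervals of its age difference were -0.32 to 0.35 in NOD and -0.51 to 0.16 in NON mice. The dim probe set was also lower in C57 mice of 4 weeks (19.3 ± 24.2 against 56.7 ± 34.5, log2 difference -1.31, 95% confidence interval -2.58 to -0.04), without passing.

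Of the eosinophil genes, Prg2, which encodes the major basic protein of the granule core, had the largest differences with age. In NOD mice its signal was 270.9, 87.3, 97.2, 176.9 and 71.6 at 4 weeks and 1333.1, 540.8, 572.2, 1276.3 and 236 at 2 weeks. The NOD ranges met in 1 mouse of each age, and the 5.62-fold difference did not pass (141 ± 83.3 against 792 ± 487, log2 difference -2.31, 95% confidence interval -3.47 to -1.16, limma adjusted p = 0.1). Without the lowest 2-week NOD mouse (replicate 5) it did, at a limma adjusted p of 0.042. In NON mice Prg2 was 262.9, 133.2, 102, 193.2 and 192.9 at 4 weeks and 721.9, 1508.6, 3121.7, 932.1 and 404.7 at 2 weeks. In C57 mice it was 45.5, 35.8, 226.3, 55.7 and 40.9 at 4 weeks and 1516, 1772.7, 469.1, 331.8 and 402.5 at 2 weeks. The ages did not overlap in either control strain, although replicate 3 of the 4-week C57 mice stood far above its group mates. The fall was 7.57-fold in NON mice (177 ± 62.1 against 1340 ± 1080, log2 difference -2.58, SE 0.56, limma adjusted p = 0.018), a call lost without replicate 2 of the 4-week NON mice (adjusted p = 0.053) or replicate 3 of the 2-week ones (0.054). In C57 mice it was 11.1-fold (80.8 ± 81.6 against 898 ± 689, log2 difference -3.30, SE 0.56, adjusted p = 0.0035).

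Epx, the peroxidase of the granule matrix, had the same direction with a smaller size. In NOD mice it was 87.7, 52.1, 49.3, 78.3 and 75 at 4 weeks and 162.9, 165.3, 188.1, 242.7 and 97.1 at 2 weeks. The NOD groups did not overlap, but the 2.5-fold difference did not pass (log2 difference -1.18, 95% confidence interval -1.84 to -0.53, limma adjusted p = 0.17). In NON mice Epx was 145.4, 126.7, 79.1, 85 and 107.2 at 4 weeks and 335, 708.4, 457.9, 194 and 275.7 at 2 weeks. The NON groups did not overlap, and the fall was 3.63-fold (log2 difference -1.67, SE 0.32, adjusted p = 0.0074). In C57 mice Epx was 74.4, 54.1, 116.8, 73 and 89.9 at 4 weeks and 374, 399.7, 204.5, 114.7 and 175.4 at 2 weeks. The C57 groups overlapped by 1 mouse of each age, and the fall was 3.11-fold (log2 difference -1.42, SE 0.32, adjusted p = 0.035). This C57 call was lost in 11 of 41 alternative settings, 7 of them leaving out 1 C57 mouse and others including the methods' own test (adjusted p up to 0.29). The NOD age difference minus that of the controls was 0.36 for Epx (-0.44 to 1.16) and 0.62 for Prg2 (-0.80 to 2.04), and neither passed.

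Neither gene passed a comparison of strains. For Prg2, NOD minus the mean of the controls was 0.25 at 4 weeks (95% confidence interval -0.59 to 1.08) and -0.37 at 2 weeks (-1.52 to 0.77). For Epx it was -0.40 at 4 weeks (-0.84 to 0.03) and -0.76 at 2 weeks (-1.46 to -0.06, limma adjusted p = 0.49).

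**Figure D3:**
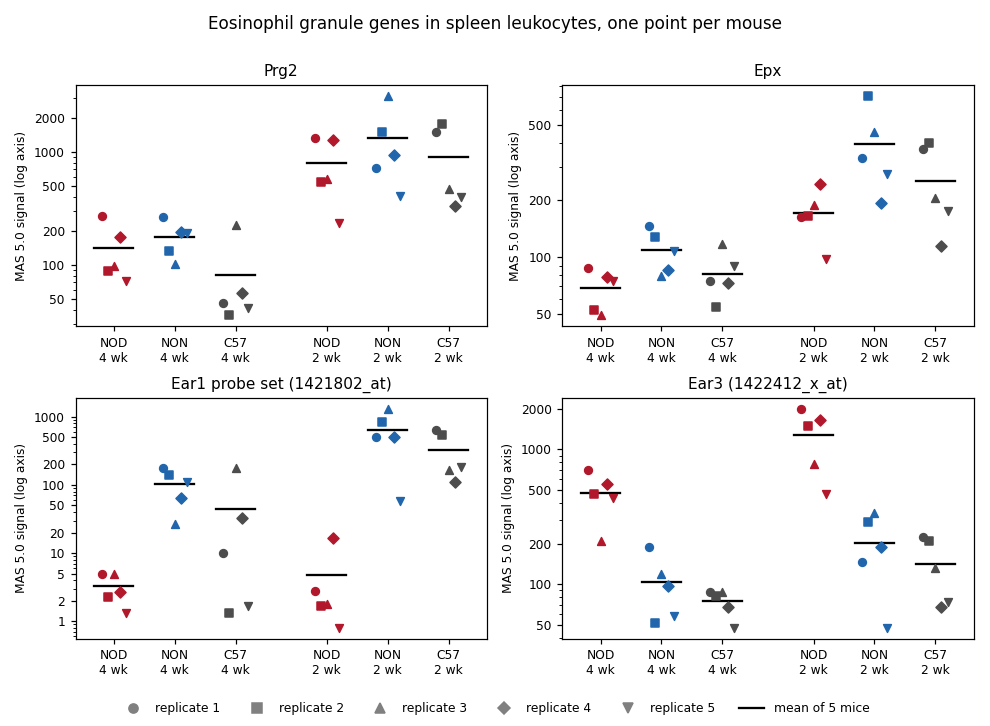
MAS 5.0 signal (log axis) of Prg2, Epx, the Ear1 probe set and Ear3 in each of the 30 mice, by strain and age. Each symbol is 1 mouse and black lines are means of 5 mice. The 10 NOD mice are at 16.4 or less for the Ear1 probe set at both ages, whereas for Ear3 all NOD mice lie above all control mice of their age.

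The Ear1 probe set, chosen for its low signal in NOD mice of 2 weeks, was near background in all NOD mice. In NOD mice its signal was 4.9, 2.3, 5, 2.7 and 1.3 at 4 weeks and 2.8, 1.7, 1.8, 16.4 and 0.8 at 2 weeks. In NON mice it was 175.3, 140.8, 27, 64.7 and 109.1 at 4 weeks and 507.2, 836.4, 1298.4, 497 and 58.6 at 2 weeks. In C57 mice it was 9.9, 1.3, 176.3, 32.3 and 1.7 at 4 weeks and 650.8, 536.8, 168, 112.1 and 182.7 at 2 weeks. No NOD mouse reached a signal of 50, so the probe set passed the filter on low signals only through the control mice. Every NOD mouse of 2 weeks was below every control of that age (0.274% of all probe sets were too), a difference for which the probe set was chosen and from which nothing is read.

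At 2 weeks the NOD difference of the Ear1 probe set, for which it was chosen, was -4.68 on the log2(signal + 10) scale, a scale that understates the changes of dim probe sets. At 4 weeks, in other animals, the NOD mean was 3.24 ± 1.64, against 103 ± 59 in NON and 44.3 ± 74.9 in C57 mice. All NON mice of that age lay above all NOD mice, but 2 of the C57 mice were as low as the NOD mice, so that no member had all NOD mice below all controls at 4 weeks (0.436% of all probe sets did). NOD minus the mean of controls was then -2.02 (95% confidence interval -3.21 to -0.83), NOD minus NON -2.90 (-4.28 to -1.53) and NOD minus C57 -1.14 (-2.52 to 0.23). These are given as a description, since the NOD signals lay at background. Of all probe sets, 0.582% were called in NOD against NON mice of that age and 1.13% in NOD against C57 mice, and 0 members. NON minus C57 passed only without replicate 3 of the C57 mice of that age (2.43, limma adjusted p = 0.03). The 2-week control signals entered the choice of the Ear1 probe set, so its age differences in C57 and NON mice are a description. With age, the Ear1 probe set fell 7.45-fold in C57 mice (log2 difference -3.23, SE 0.69, limma adjusted p = 0.023). Without replicate 3 of the 4-week C57 mice that log2 difference was -3.90 (adjusted p = 0.0035), and without replicate 1, 2 or 5 of that group or replicate 1 or 2 of the 2-week C57 mice it did not pass (adjusted p = 0.068 to 0.1). In NON mice the 6.19-fold difference did not pass (-2.22, adjusted p = 0.11) unless the lowest 2-week NON mouse (replicate 5) was left out (-2.90, adjusted p = 0.031). In NOD mice it was -0.07 (-1.48 to 1.34), between groups that both lay at background.

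Another ribonuclease probe set differed in the other direction. Ear3, a further eosinophil-associated ribonuclease, was measured by 1422412_x_at, where the x marks probes that may bind related sequences, so that its near copies cannot be kept apart. In NOD mice Ear3 was 707.1, 463.9, 207.3, 552.3 and 436.7 at 4 weeks and 1994.4, 1482.9, 779.8, 1652.4 and 466.1 at 2 weeks. In NON mice it was 187.8, 51.5, 119.1, 97.2 and 58.1 at 4 weeks and 144.7, 290.5, 336.6, 187 and 47.3 at 2 weeks. In C57 mice it was 87.6, 81.8, 87.3, 67.7 and 47.4 at 4 weeks and 224.4, 210.2, 132.2, 67.2 and 73.7 at 2 weeks. Every NOD mouse was above every control of its age. Ear3 was 5.35-fold higher in NOD mice than in the mean of the controls at 4 weeks (log2 difference 2.29, SE 0.30, limma adjusted p = 0.0013) and 7.44-fold higher at 2 weeks (2.86, SE 0.45, adjusted p = 0.0052). At 4 weeks 0.804% of all probe sets were called in this comparison in either direction. Ear3 was picked after its values were seen, so these differences are given as a description. The age differences of Ear3 had the direction of Prg2 in all strains (-1.33 in NOD, -0.80 in NON and -0.72 in C57 mice) and none passed. Rnase2a and Rnase2b were dim, with group means of 16 to 54.7.

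Ear1 and Ear2 are shown as the pair whose upstream bases were most alike (97.6% of aligned columns) among the ribonuclease genes aligned, the other pairs having 46% to 91.7%. Their 250 upstream bases lie on chromosome 14 of GRCm38.p6 (Ear1 at chr14:43819640-43819889, minus strand, and Ear2 at chr14:44102404-44102653, plus strand). The windows are offset by 2 bases, and of the 248 bases that both hold, 246 are identical (99.2%). Capitals mark the 2 bases that differ.
Ear1: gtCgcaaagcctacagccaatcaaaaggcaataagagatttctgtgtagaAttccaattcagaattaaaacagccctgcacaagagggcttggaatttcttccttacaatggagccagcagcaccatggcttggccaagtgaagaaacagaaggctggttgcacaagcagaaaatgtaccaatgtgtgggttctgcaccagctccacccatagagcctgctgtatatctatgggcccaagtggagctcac
Ear2: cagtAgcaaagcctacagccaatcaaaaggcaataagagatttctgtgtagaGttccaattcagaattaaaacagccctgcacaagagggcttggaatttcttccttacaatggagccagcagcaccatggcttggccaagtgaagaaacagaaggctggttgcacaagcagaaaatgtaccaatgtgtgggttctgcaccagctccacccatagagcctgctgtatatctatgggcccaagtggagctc
The build is that of C57BL/6, and no sequence of NOD or NON was read.

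Within a group, the eosinophil genes varied together from mouse to mouse. After each group's mean was taken off log2(signal + 10), Epx correlated with Prg2 at r = 0.74 over the 30 mice (Spearman's rho = 0.76). Over the 20 control mice, the Ear1 probe set correlated with Prg2 at r = 0.89 (rho = 0.91) and with Epx at r = 0.67 (rho = 0.78). Ear3 correlated with Prg2 at r = 0.75 over the 30 mice (rho = 0.73). The pairs were picked after their values were seen, so all are given as a description with no test. Leaving out the 2 mice farthest from the median of the gene on the x axis left these values at 0.74, 0.84, 0.66 and 0.77. Over pairs of 1915 probe sets sampled evenly from the arrays the median r in the 30 mice was 0 and the 95th percentile 0.39. No such background was taken over the 20 control mice alone, where r can spread more widely. The mice share arrays of one type and one scaling, so that array-wide differences can enter every r.

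The mast cell and basophil genes had lower correlations, of both signs, again with no test. Over the 30 mice Cpa3 correlated negatively with Ms4a2, at r = -0.33 for the 430B probe set and -0.43 for the 430A one. Fcer1a correlated with the same probe sets at 0.40 and 0.30. Mcpt8 correlated with Cpa3 at r = 0.29 (rho = 0.22, r = 0.18 without the 2 farthest mice) and with the 430B probe set of Ms4a2 at r = 0.34 (rho = 0.30, r = 0.41 without the 2 farthest). Mcpt8 correlated with Prg2 at r = 0.04 (rho = 0.06, r = 0.05 without the 2 farthest).

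**Figure D4:**
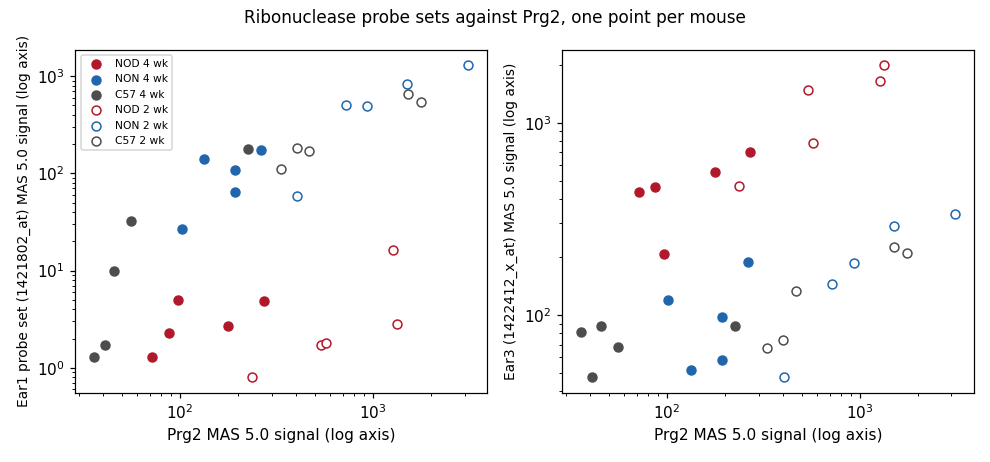
Signal of the Ear1 probe set (left) and Ear3 (right) against that of Prg2 in the same mouse, both axes logarithmic, 1 point per mouse, filled at 4 weeks and open at 2 weeks. NOD points (red) stay at 16.4 or less for the Ear1 probe set over the whole range of Prg2, and for Ear3 they lie above the NON (blue) and C57 (grey) points of their age.

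The probe sets most like Prg2 across the 30 mice, again with group means taken off, were 1422411_s_at (r = 0.87) and 1449846_at (0.85), neither with a gene in the annotation, then Alox15 (0.78), Ear3 (0.75) and Idh3g (0.75). Alox15 encodes a lipoxygenase abundant in eosinophils, and Idh3g a subunit of a citric acid cycle enzyme. For the Ear1 probe set they were Alox15 (0.78), 1422411_s_at (0.76), 1449846_at (0.72), Ufm1 (0.70) and Cdh10 (0.70). Both unnamed probe sets were bright in NOD mice. At 4 weeks 1422411_s_at averaged 987 ± 440 in NOD mice, against 568 ± 169 in NON and 410 ± 230 in C57 mice, and 1449846_at averaged 1600 ± 631, against 1840 ± 902 in NON and 1460 ± 937 in C57 mice. At 2 weeks 1422411_s_at averaged 2810 ± 1210 in NOD mice, against 1930 ± 1190 in NON and 1110 ± 643 in C57 mice. At that age 1449846_at averaged 3140 ± 1620 in NOD mice, the lowest mean of the strains, against 4860 ± 2680 in NON and 3250 ± 1330 in C57 mice. Replicate 3 of the 4-week C57 mice was the highest of its group for Prg2, Epx, the Ear1 probe set and both of these probe sets.

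For Mcpt8 the list was of another kind where group means were taken off. With group means taken off, the genes most like it were Gins1 (r = 0.83), Sfr1 (0.80), Gmnn (0.77), Kif2c (0.76) and Ncapg (0.75), and of these Gins1, Gmnn, Kif2c and Ncapg act in DNA replication or chromosome segregation. With group differences left in, they were Ctsg (0.88), Myb (0.87), Elane (0.86), Pclaf (0.86) and Mpo (0.86). Of these, Ctsg, Elane and Mpo encode granule proteins of neutrophil precursors. In the same way Prg2 was most like 1449846_at (0.88), Ptgr1 (0.84), Myb (0.83, on another probe set), 1422411_s_at (0.83) and Ctsg (0.83). Likeness to Myb and Ctsg was therefore not particular to Mcpt8. The genes most like Cpa3 were Dntt (0.71), Runx1 (0.70), Psmd13 (0.68), Cul3 (0.67) and Cyp2b10 (0.66) with group means taken off. Dntt encodes the terminal transferase of lymphocyte precursors. These are the highest of 38293 values and are given as a description.

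Between the strains, no member other than the Ear1 probe set passed a test, and at 4 weeks all members had positive NON minus C57 differences. The test over 3 strains called 0 of 10 at 4 weeks by limma (background 1.51%, 3 at an unadjusted p under 0.05) and, at 2 weeks, 0 of the 9 members other than the Ear1 probe set (background 1.66%, 2 at an unadjusted p under 0.05). At 4 weeks 4 of 10 were lower and 6 higher in NOD mice than in the mean of the controls, with a median of 0.16 beside 0.05 over all probe sets, and 0 passed by limma (background 0.804%, 1 at an unadjusted p under 0.05). At 2 weeks the Ear1 probe set was lower in NOD mice by its choice, and the 9 other members were all lower too. The median of all 10, the Ear1 probe set included, was -0.35 beside 0.06. Of the 9 without the Ear1 probe set 0 passed by limma (0.287% of all probe sets were called lower, and 2 of the 9, Mcpt8 and Epx, had an unadjusted p under 0.05). The NON minus C57 differences at 4 weeks, positive for all 10, had a median of 0.68 beside -0.01, but 0 passed by limma (background 0.794%, 3 at an unadjusted p under 0.05). Mcpt8 (2.09-fold), Prg2 (2.19-fold) and the Ear1 probe set (2.33-fold) were those 3. In the same comparison Ctsg, Mpo and Ngp of neutrophil precursors were called higher in NON mice and Cd3d, Cd3g and Cd8a of T cells lower, and the part of these cells in the member differences was not tested. At 2 weeks NON and C57 mice had a median difference of -0.11 and again 0 calls by limma (background 1.56%, 0 at an unadjusted p under 0.05).

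**Figure D5:**
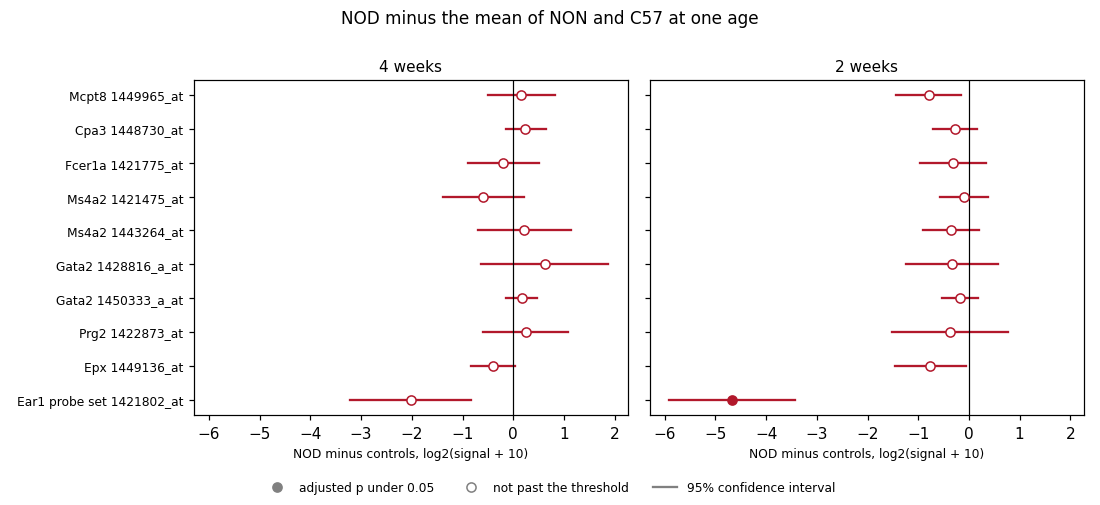
NOD minus the mean of NON and C57 mice on the log2(signal + 10) scale for the 10 member probe sets at 4 weeks (left) and 2 weeks (right), with 95% confidence intervals. The Ear1 probe set is the only filled point, at 2 weeks, for which it was chosen.

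Other genes of these cells mostly did not pass the test. Of 14 genes of FcεRI signalling, 13 were tested and 0 fell with age in any strain. In NON mice 2 rose, Fyn and Lat, which also act in T cells, and 4 of 5 T cell markers rose there as well, where 0.812% of all probe sets were called higher. Fcer1g, the signalling chain that FcεRI shares with other Fc receptors, had group means of 930 to 1330. Of 16 mast cell granule genes 12 were tested, and with age only Ctsg passed. Its mean was 470 at 4 weeks against 1510 at 2 weeks in NON mice (log2 difference -1.56, limma adjusted p = 0.031) and 146 against 1060 in C57 mice (-2.77, adjusted p = 0.00034). Ctsg is also a protease of neutrophil precursors. Genes that define tissue mast cells were measured at moderate or low signals. The tryptase Tpsb2 had group means of 44.1 to 84.5, Tpsab1 of 43 to 90 and the chymase Cma1 of 74.8 to 148. Kit, the stem cell factor receptor of mast cells and blood progenitors, lay between 168 and 297, and Mcpt1 and Mcpt4 did not pass the filter on low signals. Of 16 basophil surface, cytokine and enzyme genes, 10 were tested and 0 passed with age or in NOD mice against the controls. The 10 had median age differences of 0.06 in NOD, -0.14 in NON and -0.18 in C57 mice. None of 12 transcription factors of granulocyte lineages passed in these comparisons. Of all probe sets, 0.104% in NOD, 0.65% in NON and 0.402% in C57 mice were called lower with age. In C57 mice 0.0575% were called higher. In NOD mice against the controls, 0.804% were called at 4 weeks and 0.287% were called lower at 2 weeks. At these shares, lists of this size would hold few or no calls.

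Among the eosinophil surface genes and other ribonucleases, 6 of 16 were tested. Ear3 was higher in NOD mice at both ages, as described. Ccr3, the eotaxin receptor of eosinophils, went against Prg2 with age in C57 mice. Its signal there was 89.3, 70.8, 113.8, 99.2 and 68.9 at 4 weeks and 28.3, 5.2, 17.9, 11.5 and 20.9 at 2 weeks. The groups did not overlap, and Ccr3 was 5.27-fold higher at 4 weeks (log2 difference 1.93, SE 0.40, limma adjusted p = 0.019, where 0.0575% of all probe sets were called higher), a ratio that depends on a few units of signal. In NOD mice Ccr3 averaged 111 at 4 weeks and 89 at 2 weeks, and in NON mice 61.3 and 75, with no call by age. At 2 weeks Ccr3 was 5.31-fold higher in NOD mice than in C57 mice (limma adjusted p = 0.0078, background 0.841%) and 4.47-fold higher in NON mice than in C57 mice (adjusted p = 0.023, background 1.56%). Il5ra, the interleukin-5 receptor alpha chain of eosinophils, averaged 120 in NOD mice of that age, against 63.1 in NON mice (adjusted p = 0.035, background 0.546%), and NON mice were lower than C57 mice, at 110 (adjusted p = 0.042). Siglecf and Prg3 did not pass the filter on low signals.

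Markers of neutrophil precursors and of blood progenitors were lower with age in the same mice. Of 7 neutrophil precursor genes, 2 fell in NOD mice (Camp and Ngp), 1 in NON mice (Mpo) and 6 in C57 mice (Mpo, Prtn3, Elane, Camp, Ltf and Ngp), where 0.104%, 0.65% and 0.402% of all probe sets fell in NOD, NON and C57 mice. In C57 mice the Mpo mean was 473 at 4 weeks, against 3620 at 2 weeks (log2 difference -2.96, limma adjusted p = 6e-05). The summed signal of the 7 genes was 6540 to 24600 at 4 weeks against 29600 to 63400 at 2 weeks in NOD mice, 25500 to 33400 against 27900 to 48300 in NON mice, and 8080 to 14700 against 29600 to 42800 in C57 mice. Of 5 progenitor markers, 1 fell in NOD (Sox4), 1 in NON (Myb) and 3 in C57 mice (Cd34, Myb and Sox4), beside the same background. Their summed signal was 1210 to 2490 against 2560 to 3770 in NOD, 2160 to 2940 against 2920 to 5650 in NON, and 1640 to 2150 against 3090 to 4710 in C57 mice. The part that these cells play in the falls of Mcpt8, Prg2 and Epx was not tested. Erythroid and macrophage markers passed in no age comparison, and in NON mice 2 natural killer cell markers rose (Ncr1 and Eomes), as did Cd209a of dendritic cells (2.63-fold, limma adjusted p = 0.019). Ppbp of megakaryocytes and platelets fell 6.82-fold in NON mice (adjusted p = 0.024).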

How the data were processed

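Total RNA of spleen leukocytes was hybridised by the authors to 430A and 430B arrays, 1 of each per mouse, 60 arrays in all. The deposited values are MAS 5.0 signals, linear intensity values that the authors scaled globally per array. Their methods name a target of 100, which the deposited values do not match, and the unit was used as deposited. Detection calls were not used. Probe sets were kept where 5 or more of the 30 mice had a signal of 50 or more, which left 38293 of 45037 (17815 on 430A and 20478 on 430B) and all 10 members. The 64 control probe sets per array were left out, and 100 probe sets on both arrays were read from 430A. Gene names came from the platform annotation, which gives 1 gene to 34945 probe sets, several to 932 and none to 9160.

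Signals were compared as log2(signal + 10) with limma 3.58.1 in R 4.3.3 (lmFit, eBayes), p-values being adjusted by Benjamini-Hochberg across the kept probe sets, and a threshold of 0.05. Strains were compared at one age over its 15 mice, and ages in a fit on all 30 mice in 6 groups. Folds are ratios of mean signals, and where a mean is under 50 they depend on a few units of signal. The script was tested on simulated data with known changes. The number of arrays limits the precision.

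All member probe sets were named: Mcpt8 1449965_at, Cpa3 1448730_at, Fcer1a 1421775_at, Ms4a2 1421475_at and 1443264_at, Gata2 1428816_a_at and 1450333_a_at, Prg2 1422873_at, Epx 1449136_at and the Ear1 probe set 1421802_at. Other genes were represented by their probe set of highest mean signal, and those past the threshold were named, at most 6 per list and comparison. For likeness, the 5 most correlated probe sets outside the members were named. Members and lists were chosen with earlier results of these data known. Ear3, the other ribonucleases and the correlated pairs were picked after their values were seen. Alternatives covered the pseudocount, the filter, quantile normalization, array weights, the Gapdh ratio as covariate, other sets of mice in the fit, the methods' own tests, a replicate block and leaving out each mouse. Upstream sequences came from RefSeq (GRCm38.p6), were searched in Python and aligned with Biopython.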

Additional observations from a re-analysis of the deposited data

Results flagged for a closer look

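Within the 60 groups of 5 mice (10 member probe sets in 6 groups), 6 had 1 mouse whose gap to its nearest neighbour took an unusually large share of the group's range. Chance alone flags about 1 in 20 groups if the values are normally distributed. That was not checked for these linear signals, and all 6 flags were at the high end, so the rate is only a guide. Replicate 3 of the 4-week C57 mice was high for Prg2 (226.3, the next being 55.7, a share of 0.896) and for the Ear1 probe set (176.3, the next being 32.3, a share of 0.823). Replicate 4 of the 2-week NOD mice was the highest NOD mouse for the Ear1 probe set (16.4, the next being 2.8, a share of 0.872). In 4-week C57 mice, replicate 1 was high for Ms4a2 on the 430A array (128.3, the next being 83.2, a share of 0.741) and replicate 2 for the dim Gata2 probe set (62, the next being 14.8, a share of 0.822). In 2-week NOD mice, replicate 1 was high for Ms4a2 on the 430B array (497.5, the next being 287, a share of 0.778).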

How the results depend on the processing

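The fall of Mcpt8 with age in C57 mice passed in 40 of 41 alternatives, the exception being the methods' t-test with Benjamini-Hochberg adjustment (adjusted p = 0.076), and its adjusted p ranged over 0.00033 to 0.076. The fall of Prg2 passed in 38 of 41 in C57 and 36 of 41 in NON mice, that of Epx in 30 and 38, that of the Ear1 probe set in C57 mice in 33 and that of Ms4a2 on the 430B array in 13, with adjusted p of 0.0072 to 0.2 for the last. No direction of these was reversed. Of 116 member values past the threshold in no setting, 24 changed sign in some setting.

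The number of members called with age in C57 mice, 5 with the Ear1 probe set among them, became 3 with quantile normalization, 1 in the fit on the strain's 10 mice, 0 by the methods' t-test after Benjamini-Hochberg and 1 at its unadjusted p under 0.001. In NON mice, 2 became 0 in each of the last 3 settings. At 4 weeks the strain test called 1 in place of 0, the Ear1 probe set, with all 30 mice in the fit. Over all probe sets, the settings that kept every mouse gave 367 to 960 calls in the strain test at 4 weeks (578 in the report), 472 to 993 at 2 weeks (635), 147 to 570 and 127 to 271 in NOD mice against the controls (308 and 191), and with age 1 to 114 in NOD (56), 23 to 723 in NON (560) and 29 to 282 in C57 mice (176).

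Leaving out 1 mouse gave 2 to 5 calls in C57 mice, 1 to 3 in NON mice, 0 to 1 in NOD mice and 0 to 1 for the strain test at 4 weeks. In C57 mice, Epx was lost without replicate 1 (adjusted p = 0.086), 2 (0.11), 4 (0.08) or 5 (0.081) of 4 weeks or replicate 1 (0.15), 2 (0.17) or 5 (0.055) of 2 weeks. In the same strain the Ear1 probe set was lost without replicate 1 (0.068), 2 (0.08) or 5 (0.1) of 4 weeks or replicate 1 (0.098) or 2 (0.096) of 2 weeks. In NON mice, Prg2 was lost without replicate 2 of 4 weeks (0.053) or replicate 3 of 2 weeks (0.054). The strain test gained the Ear1 probe set without replicate 3 of the 4-week C57 mice.

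Replicate numbers are shared by the groups but did not pair the mice. The deviations of same-numbered mice correlated at a median of 0.0371, and of 15 pairs of groups 0 had every correlation over 0.1. With the replicate number as a block, 4 members were called with age in C57 mice (Ms4a2 was lost), 2 in NON, 0 in NOD, and 0 and 1 in the strain tests at 4 and 2 weeks. The count in NOD mice against the controls was 0 at 4 weeks and 1 at 2 weeks, and 0 in both tests between age changes.

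Fcer1a, 1 Gata2 probe set and the Ear1 probe set in NOD mice lay at low signals, where this method cannot tell expression from background, and 5 mice per group limit what a test over 38293 probe sets can find.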
